A study of Homo sapiens with 4 samples.

Results

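The genes described here are *ZDHHC9*, *GOLGA7*, whose product is the partner of the ZDHHC9 enzyme, and 8 further palmitoyltransferase genes (*ZDHHC2*, *ZDHHC3*, *ZDHHC4*, *ZDHHC5*, *ZDHHC6*, *ZDHHC7*, *ZDHHC8* and *ZDHHC18*). They are 10 of the 63677 genes in the count table and 9 of them belong to the 24 DHHC genes found in it. The set was chosen by the measured difference of *ZDHHC9* between cells given miR-6133-5p and cells given miControl, where it lay far lower, and the other 9 genes were added by name. The values of the 10 genes in that comparison are therefore a description and carry no test. All 10 genes passed the filter on low counts. The RNA came from LX-2, an established human hepatic stellate cell line, and each library is therefore a sample of the same line. The cells were transfected with 20 nM of either of 2 mimics, one of miR-6133-5p and the other a negative control called miControl, were given 5 ng/mL of rhTGF-β1, and were collected 24 h after the rhTGF-β1 was added. There were 2 libraries in each group, and no library without rhTGF-β1 was analysed here. The labels do not state whether the libraries of a group came from separate cultures. The p-values set each difference against the spread between these libraries, estimated with the help of all genes tested, and that spread may be technical.

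DHHC proteins are membrane enzymes of the endoplasmic reticulum, the Golgi and the plasma membrane that attach palmitate, taken from palmitoyl-CoA, to cysteines of other proteins. The attachment holds a protein on a membrane, and acyl-protein thioesterases remove it again. ZDHHC9 works at the Golgi in a complex with GOLGA7 and is best known for palmitoylating HRAS and NRAS, which farnesylation has already anchored weakly, and mutations of *ZDHHC9* cause an X-linked intellectual disability. Stellate cells are the collagen-producing cells of the injured liver.

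The libraries held 51862006 and 57903388 counts for miControl replicates 1 and 2, and 61747010 and 93811213 counts for miR-6133-5p replicates 1 and 2. Levels are given as CPM, a gene's counts as a share of the library's TMM-scaled total, and 1 count was worth 0.0101 to 0.0203 CPM. Reads were counted separately for each mate, at 1.68 to 1.70 counts per uniquely mapped pair, so the counts overstate the number of independent fragments and the spread between libraries is the error used below. Of 12 stellate cell markers, 8 exceeded 1 CPM in all 4 libraries, while the others, *DES*, *LRAT* and *GFAP* among them, did not. The summed level of those markers was 8550 to 9121 CPM in miControl and 5731 to 6355 CPM in miR-6133-5p. They did not all move one way. Of the 8 tested, 6 had a negative and 2 a positive log2 fold change of miR-6133-5p against miControl. The range was -1.95 (*ACTA2*) to 0.42 (*TIMP1*). The markers of the other liver cells were near 0 in sum: 2.01 to 2.84 CPM for hepatocytes, 0.294 to 0.827 CPM for endothelial cells, 1.16 to 2.27 CPM for leukocytes and 3.70 to 7.30 CPM for cholangiocytes. The endothelial, leukocyte and cholangiocyte sums were higher in both miR-6133-5p libraries than in both miControl libraries, and the part of any of these marker levels in the results below was not tested. In bulk RNA, fewer cells with a transcript and less of it per cell cannot be told apart.

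*ZDHHC9* (ENSG00000188706, chrX:128937264-128977885, minus strand, GRCh37) had 52.3 and 48.7 CPM in the miControl libraries and 7.85 and 7.76 CPM in the miR-6133-5p libraries. These rest on 2570, 2655, 513 and 769 counts, and the groups lay far apart with little spread inside either one. The log2 fold change was -2.69 (SE 0.115), that is 15.4% of the miControl level or 6.47-fold lower, and it lay between -2.77 and -2.65 when each library in turn was left out. Throughout, SE (standard error) is the size of the log2 fold change divided by the square root of the F statistic of edgeR's quasi-likelihood test. Of the 18252 genes tested, *ZDHHC9* had the 30th lowest log2 fold change. No other annotated gene shares exon bases with it on either strand.

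*GOLGA7* (ENSG00000147533, chr8:41345719-41368614, plus strand) encodes the Golgi protein without which ZDHHC9 is unstable and inactive. It had 79.1 and 76.1 CPM in miControl and 71.1 and 63.0 CPM in miR-6133-5p (log2 fold change -0.21, SE 0.105). The groups did not overlap, but their distance was close to the gap between the miR-6133-5p libraries, and it was -0.05 when library totals alone set the scale. For *GOLGA7*, 20.1% of exon bases also lie under exons of genes on the opposite strand, and the strand setting of the counting is not given in the sources used here. The ratio of *ZDHHC9* counts to *GOLGA7* counts, which no scaling of the libraries can alter, was 0.661 and 0.640 in miControl and 0.110 and 0.123 in miR-6133-5p. Relative to the transcript of its partner, that of the enzyme was far lower in both miR-6133-5p libraries.

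*ZDHHC18* (chr1:27153179-27184095, plus strand), the Golgi enzyme closest to ZDHHC9 in sequence together with ZDHHC14 and likewise active on HRAS and NRAS, had the next lowest value. It had 79.1 and 72.4 CPM in miControl and 39.7 and 36.8 CPM in miR-6133-5p. The log2 fold change was -0.99 (SE 0.105), and it was -0.82 with library totals alone. *ZDHHC14*, which is not among the 10 genes and was picked for its kinship after its values were seen, had 10.2 and 8.81 CPM in miControl and 10.2 and 8.71 CPM in miR-6133-5p, so its groups overlapped. Against *ZDHHC14* counts, *ZDHHC18* counts stood at 7.75 and 8.21 in miControl and 3.90 and 4.23 in miR-6133-5p, and *ZDHHC9* counts at 5.12 and 5.53 in miControl and 0.771 and 0.891 in miR-6133-5p. Of these 3 related enzymes, *ZDHHC9* and *ZDHHC18* were lower in both miR-6133-5p libraries and *ZDHHC14* was not.

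*ZDHHC5* (chr11:57435219-57468654, plus strand) encodes a plasma membrane enzyme that also binds GOLGA7 and palmitoylates flotillin-2 and, with ZDHHC4, the fatty acid carrier CD36. It had 243 and 231 CPM in miControl and 157 and 163 CPM in miR-6133-5p (log2 fold change -0.57, SE 0.102). Its closest relative *ZDHHC8* (chr22:20116979-20135530, plus strand) had 36.2 and 33.3 CPM in miControl and 37.2 and 40.02 CPM in miR-6133-5p (log2 fold change 0.15, SE 0.107). The pair thus parted, and the ratio of *ZDHHC5* to *ZDHHC8* counts was 6.70 and 6.95 in miControl and 4.23 and 4.08 in miR-6133-5p.

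*ZDHHC3* and *ZDHHC7* are another closely related pair, Golgi enzymes of broad specificity that act on G protein α subunits among many other proteins. *ZDHHC3* (chr3:44956749-45017677, minus strand) had 112 and 113 CPM in miControl and 75.8 and 75.6 CPM in miR-6133-5p (log2 fold change -0.57, SE 0.0995). *ZDHHC7* (chr16:85007781-85045141, minus strand) had 39.9 and 35.4 CPM in miControl and 31.7 and 33.0 CPM in miR-6133-5p (log2 fold change -0.22, SE 0.108). Both were lower in both miR-6133-5p libraries, *ZDHHC3* by more, and the ratio of *ZDHHC3* to *ZDHHC7* counts went from 2.81 and 3.18 to 2.39 and 2.30. With library totals alone *ZDHHC7* stood at -0.06.

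*ZDHHC6* (chr10:114184186-114207330, minus strand) encodes an endoplasmic reticulum enzyme that palmitoylates calnexin and the transferrin receptor. It had 61.2 and 65.9 CPM in miControl and 44.7 and 37.9 CPM in miR-6133-5p (log2 fold change -0.62, SE 0.112), and its miR-6133-5p libraries differed from each other more than those of *ZDHHC3* did. *ZDHHC4* (chr7:6617065-6629005, plus strand), the lowest of the 10 genes in miControl, had 6.53 and 6.06 CPM there and 7.49 and 7.22 CPM in miR-6133-5p (log2 fold change 0.23, SE 0.142). For *ZDHHC4*, 10.04% of exon bases lie under exons of the opposite strand. *ZDHHC2* (chr8:17013991-17082308, plus strand), which palmitoylates the tetraspanins CD9 and CD151 and the membrane protein CKAP4, had 43.3 and 54.3 CPM in miControl and 44.4 and 43.8 CPM in miR-6133-5p. The groups overlapped, and a log2 fold change of -0.15 (SE 0.119) turned to 0.02 with library totals alone.

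**Figure D1:**
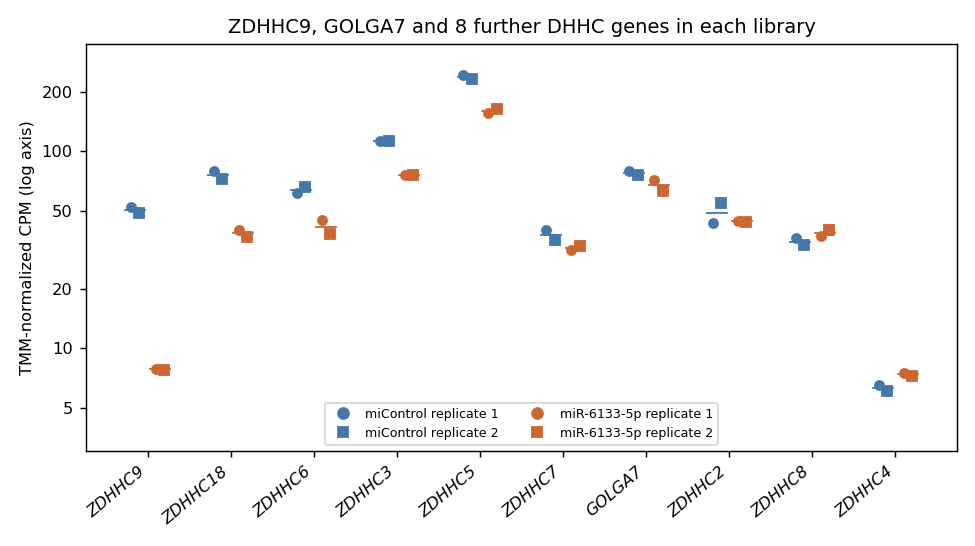
TMM-normalized CPM (log axis) of the 10 genes in each of the 4 libraries, ordered by log2 fold change; blue marks miControl, orange marks miR-6133-5p, circles and squares are replicates 1 and 2, and short lines are group means. *ZDHHC9* goes from 52.3 and 48.7 CPM to 7.85 and 7.76 CPM, while *ZDHHC8* and *ZDHHC4* sit slightly higher in miR-6133-5p and the groups of *ZDHHC2* overlap.

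Of the 10 genes, 8 had a negative and 2 a positive log2 fold change, with a median of -0.39 beside 0.03 over all genes tested. Without *ZDHHC9* the median was -0.22. With library totals alone, which moves every gene by about the same amount, the median of the 10 genes was -0.23 and that of all genes 0.19. A gene was called where the adjusted p of edgeR's quasi-likelihood test was below 0.01 and the log2 fold change lay beyond 0.8 in either direction. *ZDHHC9* and *ZDHHC18* met that rule as lower, 2 of 10, where 5.54% of all genes tested were called lower, and 0 of 10 met it as higher, where 2.90% were. When the test was made against the fold threshold itself, *ZDHHC9* met the rule and *ZDHHC18* did not. For 7 of the 10 genes the higher miR-6133-5p library was still under the lower miControl library, as for 31.3% of all genes tested, and for 2 the reverse held, as for 33.2%. Nothing is read from these counts, because the genes were chosen with the comparison known.

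The rest of the DHHC family has 15 genes, of which 13 were tested. They are what the choice of the 10 genes left over, so their values are not independent of it. *ZDHHC19* had no count in any library, which allows at most 0.0303 to 0.0610 CPM, and *ZDHHC22*, with at most 0.232 CPM, was below the filter. None of the 13 was called by edgeR or by DESeq2, and in the main edgeR fit none had an adjusted p below 0.01. In that fit 4 had an unadjusted p under 0.05, as 40.3% of all genes tested did. With 5.54% of all genes called lower and 2.90% called higher, a count of 0 among 13 genes does not set them apart. Their log2 fold changes ran from -0.15 to 0.56 with a median of 0.10 (0.26 with library totals alone), 4 of them negative and 9 positive. *ZDHHC17*, a Golgi enzyme with ankyrin repeats, had 94.8 and 117 CPM in miControl and 104 and 104 CPM in miR-6133-5p (log2 fold change -0.02, SE 0.116). *ZDHHC16*, the enzyme that palmitoylates ZDHHC6, had 56.3 and 53.6 CPM in miControl and 59.5 and 54.5 CPM in miR-6133-5p (log2 fold change 0.05, SE 0.103). *ZDHHC20*, a plasma membrane enzyme, had 38.5 and 39.2 CPM in miControl and 42.2 and 57.7 CPM in miR-6133-5p, where the log2 fold change was 0.36 with an edgeR adjusted p of 0.0570. That value rests on miR-6133-5p replicate 2, since it was 0.10 without that library and 0.55 without miR-6133-5p replicate 1. The largest value, chosen after it was seen, was that of *ZDHHC23*, with a log2 fold change of 0.56 and an edgeR adjusted p of 0.0137. That log2 fold change lay between 0.39 and 0.67 when each library in turn was left out. With the replicate number added to the edgeR fit as a block, the adjusted p of *ZDHHC23* was 0.00241, and it was again not called. *ZDHHC11* and *ZDHHC11B* are near-copies of each other, and reads that mapped to several places were not kept, so their levels are uncertain.

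**Figure D2:**
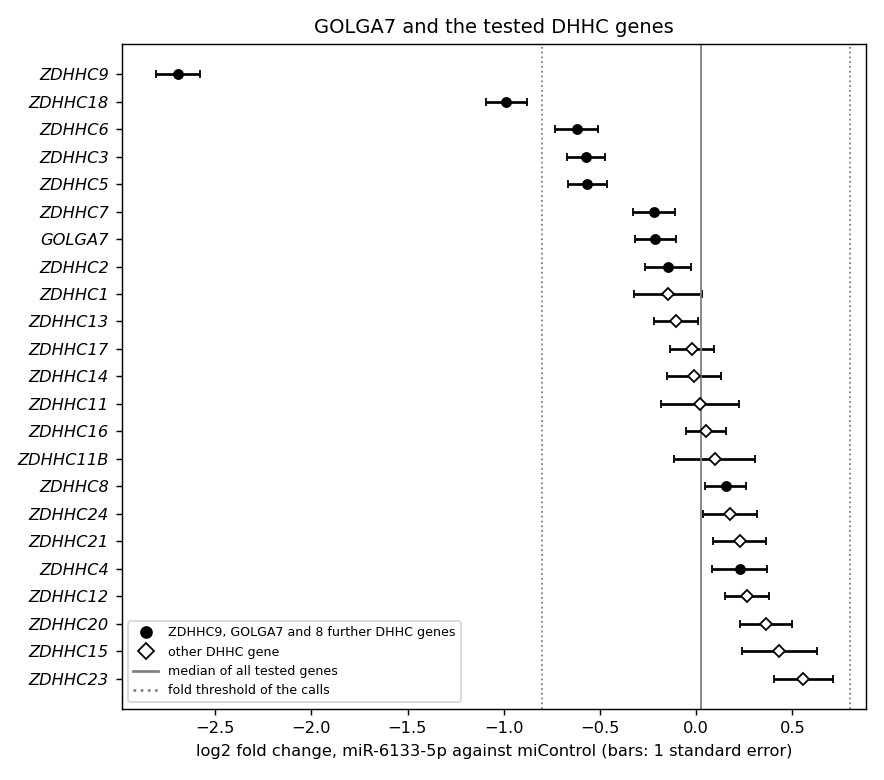
Log2 fold change of miR-6133-5p against miControl for *GOLGA7* and the 22 DHHC genes tested, with bars of 1 standard error; filled circles are the 10 genes described here, open diamonds the other DHHC genes, the solid line the median of all genes tested (0.03) and the dotted lines the fold threshold of 0.8. *ZDHHC9* at -2.69 and *ZDHHC18* at -0.99 lie beyond the left dotted line, and the open diamonds lie between -0.15 and 0.56.

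Levels of different genes can be compared only per length, here as CPM per kilobase of all annotated exons merged. In miControl the order was *ZDHHC5* (43.7), *ZDHHC18* (13.9), *GOLGA7* (10.4), *ZDHHC9* (9.63), *ZDHHC7* (9.53), *ZDHHC3* (8.37), *ZDHHC2* (7.76), *ZDHHC6* (6.87), *ZDHHC8* (6.26) and *ZDHHC4* (1.77), as means of 2 libraries. The neighbours *ZDHHC9* and *ZDHHC7*, *ZDHHC3* and *ZDHHC2*, and *ZDHHC2* and *ZDHHC6* overlapped between the miControl libraries. In miR-6133-5p, *ZDHHC9* was the lowest of the 10 genes at 1.496 and 1.48 CPM per kilobase, against 9.97 and 9.30 in miControl, and its place among the DHHC genes moved from 5 to 15. The order depends on the gene models, since *GOLGA7* has 7474 bases of merged exons and 2099 in its canonical transcript, and *ZDHHC6* 9250 and 2170. With canonical transcripts *ZDHHC6* was 3rd of the 10 genes in miControl in place of 8th, at 29.3 CPM per kilobase. *ZDHHC9* was then 5th of the 10 genes in miControl and again last in miR-6133-5p. Its place among the DHHC genes then moved from 7 to 16.

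The DHHC transcripts together summed to 161 and 160 CPM per kilobase in miControl and to 129 and 130 in miR-6133-5p. *ZDHHC9* made up 6.19% and 5.81% of that sum in miControl and 1.16% and 1.14% in miR-6133-5p. Without *ZDHHC9* the sums were 151 and 151 against 127 and 129, so most of the difference came from other members of the family, chiefly *ZDHHC5*. The group of *ZDHHC9*, *ZDHHC14* and *ZDHHC18* held 15.7% and 14.6% of the sum in miControl and 7.52% and 6.92% in miR-6133-5p. Scaled by library totals alone and not divided by length, the DHHC sum was 905 and 910 CPM in miControl and 800 and 812 in miR-6133-5p, again lower in both.

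**Figure D3:**
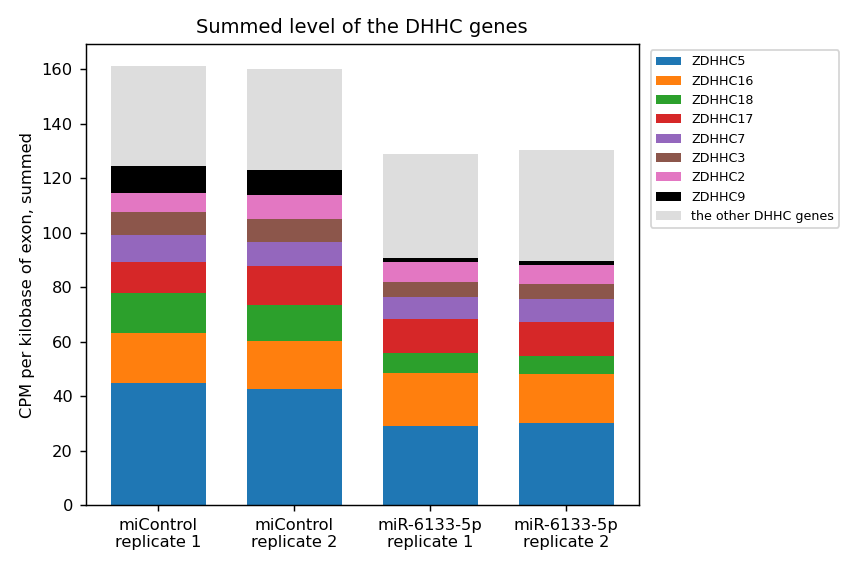
Summed CPM per kilobase of merged exon of the DHHC genes in each library, split into the 8 with the highest miControl means and the others; *ZDHHC9* is in black. The bars reach 161 and 160 in miControl and 129 and 130 in miR-6133-5p, and the black segment shrinks from 6.19% and 5.81% of a bar to 1.16% and 1.14%.

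MicroRNAs pair through a few bases near their 5′ end with sites in the 3′ UTR of transcripts. The RefSeq table used here (GRCh38.p14) gives the *MIR6133* hairpin (chr7:133290881-133290988, plus strand), and the mature miR-6133-5p sequence was not used here. Each sequence of 7 bases complementary to the hairpin and present in the 3′ UTR of at least 100 of 13302 other genes tested was therefore compared. Among 99 such sequences, the genes with CTCCCTC had the lowest mean log2 fold change relative to the genes without it, a difference of -0.28 over 2847 genes with it. The next lowest were TCCCTCA (-0.24) and TTCCCTC (-0.20). All 99 differences were negative, and the one nearest 0 was -0.07 (AACAATG), so a lower mean was not particular to CTCCCTC. The choice of CTCCCTC used the comparison of miR-6133-5p with miControl, in genes other than the DHHC and palmitoylation genes described here, so matches are a description. The hairpin is shown because its capitals, from position 72, are the bases complementary to CTCCCTC.
MIR6133 hairpin: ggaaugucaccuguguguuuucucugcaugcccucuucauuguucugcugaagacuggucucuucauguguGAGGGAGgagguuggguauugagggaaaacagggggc

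In the canonical transcript of each gene (GENCODE models on GRCh37), 4 of the 10 genes had a CTCCCTC in the 3′ UTR, with 8 matches in all. Among the 13302 other genes, 21.4% had at least 1, and among those with a 3′ UTR of 2000 to 5000 bases 31.1% did. Of the 10 genes, *ZDHHC9*, *ZDHHC18*, *ZDHHC7*, *ZDHHC8* and *ZDHHC2* lie in that window, and of those *ZDHHC8* and *ZDHHC2* had no match. The others lie outside it, so 31.1% is no reference for the 10 genes together. *ZDHHC9* had 1 match, 2222 bases after the stop codon in a 3′ UTR of 3082 bases (window chrX:128938115-128938139). *ZDHHC18* had 3, at 2333, 2938 and 3293 of 3761 bases (chr1:27182652-27182676, chr1:27183257-27183281 and chr1:27183612-27183636). *ZDHHC3* had 3 as well, at 832, 4621 and 10055 of 11428 bases (chr3:44967340-44967364, chr3:44963551-44963575 and chr3:44958117-44958141), and *ZDHHC7* had 1, at 1381 of 2168 bases (chr16:85008559-85008583). The windows are shown in transcript direction to compare what surrounds the match, which is in capitals.
ZDHHC9: agatggctctctctcCTCCCTCacc
ZDHHC18 match 1: ccacctctctggtatCTCCCTCagg
ZDHHC18 match 2: gcccctgcaggccgcCTCCCTCctc
ZDHHC18 match 3: ctctacgctgatatgCTCCCTCtct
ZDHHC3 match 1: ctctcaccaccccatCTCCCTCtct
ZDHHC3 match 2: tctttttctcaccctCTCCCTCaag
ZDHHC3 match 3: tggattcaccacccaCTCCCTCcac
ZDHHC7: aagagaagttggcgtCTCCCTCctg

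The base right after the match was A in *ZDHHC9*, in the first match of *ZDHHC18* and in the second of *ZDHHC3*. The number of matches did not order the fold changes of these genes, since *ZDHHC9* with 1 match had a log2 fold change of -2.69, *ZDHHC18* and *ZDHHC3* with 3 each had -0.99 and -0.57, and *ZDHHC7* with 1 had -0.22. *ZDHHC5* at -0.57 and *ZDHHC6* at -0.62 had no match in 3′ UTRs of 1151 and 504 bases, and neither did *GOLGA7*, *ZDHHC2*, *ZDHHC4* and *ZDHHC8*. With the longest annotated 3′ UTR of each gene, *GOLGA7* gained 1 match and the count of genes became 5. Of the other DHHC genes, 4 had a match, and the 3 of them that were tested had log2 fold changes of -0.15 (*ZDHHC1*), 0.18 (*ZDHHC24*) and 0.56 (*ZDHHC23*).

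**Figure D4:**
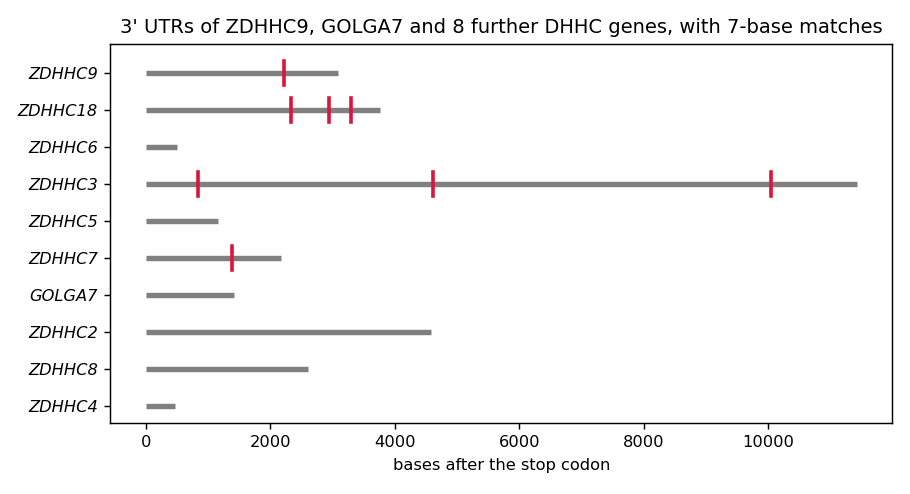
The 3′ UTR of the canonical transcript of each of the 10 genes, drawn from the stop codon in bases, with red ticks at each CTCCCTC. *ZDHHC9* and *ZDHHC7* hold 1 tick each and *ZDHHC18* and *ZDHHC3* 3 each, *ZDHHC3* in a 3′ UTR of 11428 bases.

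Over the 13302 other genes, the median log2 fold change was 0.08 for genes with no match, -0.09 with 1, -0.30 with 2 and -0.31 with 3 or more. The share called lower was 4.52%, 11.6%, 16.9% and 23.3% in the same order. The median 3′ UTR length moved alongside, at 1056, 2269, 2871 and 4147 bases, and its part in the order was not tested. Beside the genes with 1 match, of which the middle 80% lay between -0.94 and 0.53, *ZDHHC9* lay far below and *ZDHHC7* inside. *ZDHHC9* was chosen for its low value, so nothing is read from its place there.

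**Figure D5:**
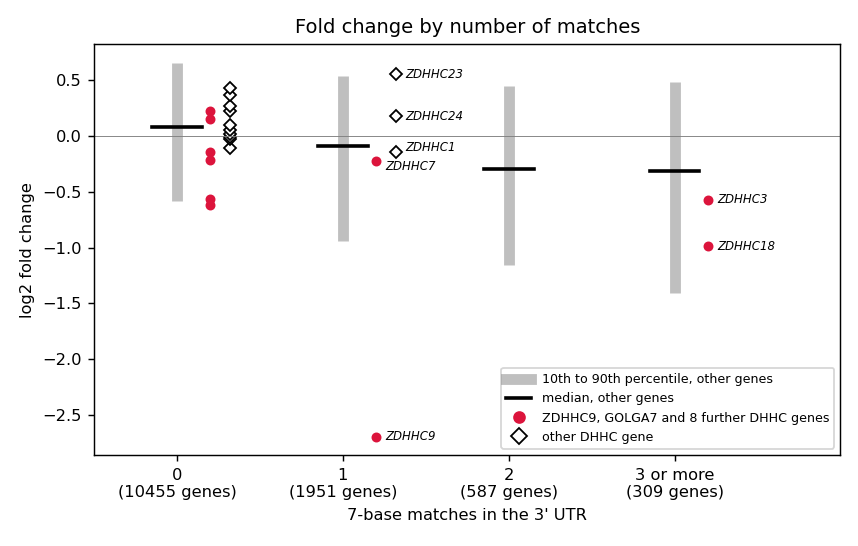
Log2 fold change of miR-6133-5p against miControl by the number of CTCCCTC matches in the 3′ UTR; grey bars span the 10th to the 90th percentile of the other genes, black lines are their medians, red circles are the 10 genes described here and open diamonds the other DHHC genes. The medians run from 0.08 with no match to -0.31 with 3 or more, and *ZDHHC9*, chosen for its low value, lies at -2.69 outside the bar for 1 match.

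The genes whose profile over the 4 libraries was most like that of *ZDHHC9*, by the root mean square difference of centred log2 CPM among 9455 genes compared, were *HMGA2* (0.0621), *NID1* (0.0910), *STX2* (0.108), *RHOJ* (0.112) and *PACS1* (0.136). They encode an architectural chromatin protein, a basement membrane protein, a syntaxin, a small GTPase and a sorting protein of the trans-Golgi. *HMGA2* had 143 and 150 CPM in miControl and 23.2 and 22.7 CPM in miR-6133-5p, nearly the same proportion as *ZDHHC9*. The log2 fold changes of the 5 genes lay between -2.72 and -2.44, and with 2 libraries a group the likeness reflects mainly the size of that difference.

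The genes around palmitoylation were read from 6 lists made up by role, 42 genes in all, each of which was tested. By the call rule 1 was lower, where 5.54% of all genes tested were, and 1 was higher, where 2.90% were. The lower count became 3 without miControl replicate 2 or without miR-6133-5p replicate 1, and the higher count became 2 without miR-6133-5p replicate 1. With library totals alone 3 were higher, and the calls of higher genes over all genes went from 529 to 977. At an edgeR adjusted p below 0.01 and any size, 12 fell, where 10.9% of all genes did, and 4 rose, where 7.96% did. Reaching that adjusted p depends on a gene's counts, and the 42 genes were not matched to all genes in level. The median of the 42 log2 fold changes was -0.10, and it was 0.07 with library totals alone. "Fell" and "rose" refer below to that adjusted p, over all 18252 genes.

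Among the accessory proteins, *GOLGA7B*, the paralog of *GOLGA7* that binds ZDHHC5, had 0.773 and 0.624 CPM in miControl and 0.260 and 0.393 CPM in miR-6133-5p. The difference of -1.07 on the log2 scale (SE 0.432) had an edgeR adjusted p of 0.0797. *SELENOK*, the selenoprotein that works with ZDHHC6, had 27.7 and 29.8 CPM in miControl and 34.3 and 27.5 CPM in miR-6133-5p, and its groups overlapped.

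Of the 8 genes of enzymes that remove palmitate, 3 fell and none rose at that adjusted p. The shares over all genes tested were 10.9% and 7.96%. *LYPLA1*, encoding acyl-protein thioesterase 1, went from 108 and 118 CPM to 74.2 and 64.1 CPM, a log2 fold change of -0.71 with an edgeR adjusted p of 0.000343. The other two, named after their values were seen, were *LYPLA2*, its paralog, at -0.74 and *ABHD17C*, of a family that takes palmitate off NRAS, at -0.79. *ABHD17C* was just inside the fold threshold and was called with DESeq2. *PPT1*, the lysosomal thioesterase, had a log2 fold change of 0.33 with an edgeR adjusted p of 0.0258, and *ABHD10*, a mitochondrial one, had 0.28 with 0.0741.

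Of the 9 genes of Ras proteins and of the enzymes that process their C-terminus, 2 fell and 2 rose. Over all genes tested, 10.9% fell and 7.96% rose. *RRAS2*, encoding the Ras-related protein TC21, was called higher, going from 24.0 and 28.3 CPM in miControl to 67.1 and 58.5 CPM in miR-6133-5p (log2 fold change 1.26, SE 0.119) with an edgeR adjusted p of 4.85e-06. *NRAS*, a substrate of ZDHHC9, fell from 377 and 396 CPM to 274 and 261 CPM, a log2 fold change of -0.53 with an edgeR adjusted p of 0.00149. *ICMT*, the methyltransferase that finishes the CAAX motif, fell by 0.46 on the log2 scale with an edgeR adjusted p of 0.00337. *HRAS*, also a substrate of ZDHHC9 and named here for that reason, stood at -0.09 with an edgeR adjusted p of 0.620. *RCE1*, the CAAX protease, rose by 0.69, and 19.0% of its exon bases are shared with another gene on its own strand.

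Of 13 genes of other palmitoylated proteins, 6 fell and 2 rose, where 10.9% of all genes tested fell and 7.96% rose. *CD151*, a tetraspanin, was called lower, going from 119 and 101 CPM in miControl to 28.2 and 21.4 CPM in miR-6133-5p (log2 fold change -2.16, SE 0.139) with an edgeR adjusted p of 2.30e-07. Its 3′ UTR of 639 bases held 1 CTCCCTC, 447 bases after the stop codon (window chr11:838624-838648). CTCCCTC also occurred in the 3′ UTRs of *CKAP4* (log2 fold change -0.58), *GNAQ* (-0.48), *FLOT2* (0.11), *GNA11* (0.14) and *CANX* (0.69) of this list. These were named after their matches and values were seen, and 21.4% of the 13302 genes outside the lists had at least 1 CTCCCTC. The window of *CD151* is shown for comparison with that of *ZDHHC9*.
CD151: caacccagccctcgtCTCCCTCgac

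*CANX*, encoding the chaperone calnexin, a ZDHHC6 substrate, rose from 594 and 608 CPM to 949 and 986 CPM, a log2 fold change of 0.69 with an edgeR adjusted p of 0.000192. *TFRC*, encoding the transferrin receptor and the other ZDHHC6 substrate, named after its values were seen, fell by 0.58, so the pair went opposite ways. The ZDHHC2 substrates did so too: *CD9*, named likewise, rose by 0.42 with an edgeR adjusted p of 0.00927, while *CD151* and *CKAP4* (by 0.58) fell. *GNAS*, the Gαs gene, had 972 and 913 CPM in miControl and 958 and 815 CPM in miR-6133-5p, and its groups overlapped. *CAV1*, encoding caveolin-1, had a log2 fold change of -0.35 with an edgeR adjusted p of 0.0204.

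The 6 genes that supply or bind long-chain acyl-CoA showed no call and no edgeR adjusted p below 0.01. Of all genes tested, 10.9% fell and 7.96% rose. *ACSL4*, *ACSL3* and *DBI*, the highest in mean log2 CPM without regard to length, had log2 fold changes of -0.27, -0.18 and 0.05. Of 4 transferases that attach other lipids or attach palmitate outside the DHHC family, *HHAT*, the Hedgehog acyltransferase, fell by 0.71 with an edgeR adjusted p of 0.000418. The N-myristoyltransferase genes *NMT1* and *NMT2* had log2 fold changes of -0.34 and 0.42 with edgeR adjusted p of 0.0224 and 0.0119.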

How the data were processed

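The authors sequenced TruSeq Stranded mRNA libraries as pairs of 150 bases per mate and mapped them to GRCh37 through a commercial program. The submitters' processing notes name STAR 2.5.3a and featureCounts of Subread 1.6.4. The deposited gene counts are whole numbers with no normalization, and the deposited mapping summary gives the fraction of input pairs that mapped uniquely, 96.5% to 96.8% of 31548220 to 57954488 pairs, with 0 pairs kept at several places. The annotation release and strand setting of the counting are not given in the sources used here.

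Counts were tested with edgeR 4.0.16 (filterByExpr, TMM, glmQLFit, glmQLFTest; R 4.3.3) over 18252 genes with Benjamini-Hochberg adjustment, at an adjusted p of 0.01 and a log2 fold change of 0.8, as in the study's methods. DESeq2 1.42.0, other scalings, filters and each library left out were alternatives. The common biological coefficient of variation was 0.105. With 2 libraries against 2, the smallest exact permutation p is 0.333, so no single value was tested that way. On simulated data with few changed genes, as many raised as lowered, both tools were checked. That check cannot show how the choice of scaling acts in these data. Symbols, exon lengths and 3′ UTRs came from GENCODE models on GRCh37, with a prior count of 2 for log2 CPM. *PECAM1* was not found by symbol.

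The 10 genes and the lists were chosen with earlier results of these data known. Named are the 10 genes, all called list genes, the 5 genes most like *ZDHHC9*, and a few stated to be named after their values were seen. Also named are, in each list, the uncalled genes with the highest mean log2 CPM, at most 3 and not set per length. Of the genes this rule names, 1 is not reported here.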

Additional observations from a re-analysis of the deposited data

How the results depend on the processing

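Over 10 alternatives, 9 of the 10 genes kept the sign of their log2 fold change, the exception being *ZDHHC2*, at 0.02 with library totals alone. Tested against the fold threshold itself (glmTreat), 326 genes were lower and 80 higher, in place of 1011 and 529, and 1 of the 10 genes, *ZDHHC9*, was called in place of 2. With library totals alone 709 were lower and 977 higher, so that 42.1% of calls were lower in place of 65.6%, and 3 of the 42 palmitoylation genes were higher in place of 1, with *RCE1* and *CANX* added to *RRAS2*. With DESeq2, with RLE scaling and with at least 10 counts in every library, 2 of the 42 were lower in place of 1, *ABHD17C* added to *CD151*. Leaving out each library in turn gave 770 to 1249 lower and 293 to 587 higher genes, the 293 without miControl replicate 1, and 1 to 3 lower and 1 to 2 higher palmitoylation genes. Without miControl replicate 2 the added lower genes were *LYPLA2* and *ABHD17C*, and without miR-6133-5p replicate 1 they were *LYPLA1* and *ABHD17C*, with *ACSL5* added as higher. The cause of these shifts was not tested. With the last 6 bases of CTCCCTC, a setting chosen after seeing the data, 7 of the 10 genes had a match, as did 40.7% of the other genes. The mature sequence was not used here, so whether these 6 bases answer to its bases 2 to 7 was not checked. Libraries of equal replicate number hardly deviated together (correlation of deviations 0.0490), which does not settle whether they were paired by culture or batch. The replicate block gave 1130 lower and 642 higher genes, with the same calls among the DHHC and palmitoylation genes. With 1 deeper library, at 93811213 counts, and 2 libraries a group, differences of the size seen for *GOLGA7* and *ZDHHC7* lie near the spread between libraries.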
